A study of Mus musculus with 18 samples.

Results

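The data described here are the transcript levels of 34 germline and meiosis genes in mouse embryonic stem cells and in the gastruloids grown from them. The genes were taken as a list of symbols, and all 34 were matched to 1 gene ID each among the 55401 gene IDs of each table. They fell into 5 roles, with 5 genes of primordial germ cells, 2 germ cell RNA-binding proteins, 10 genes of the piRNA pathway and the Tudor-domain family, 10 genes of meiotic chromosomes and 7 further genes of testis and oocyte. A gastruloid is a cultured ball of stem cells in which early embryonic tissues appear. The cells were RHKI, a derivative of the mouse line E14Tg2a, and every group carried an HA-Rnaseh1 knock-in that is induced by doxycycline (Dox). RNase H1 is a nuclease that cuts RNA paired with DNA. The 18 libraries fell into 6 groups of 3. These were Dox and control at day 0 (0 h), Dox and control at day 3 (72 h), and Dox and control at day 5 (120 h). Dox groups were given 500 ng/ml of the drug for 48 h ahead of differentiation, and whether it was kept up after that is not stated in the labels. For all 6 groups the labels list growth in 2i/LIF medium, in which the inhibitors were PD0325901 at 1 µM and CHIR-99021 at 3 µM, and which held serum (FBS) at 2%. The medium of the gastruloids up to day 3 and day 5 is not described here. The labels name 1 line and no separate clones or cultures, so p-values here cover only differences among these libraries, which may be technical.

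Germ cells arise in the early embryo as primordial germ cells, and genes of the germline are kept silent in most other tissues. The piRNA pathway, in which PIWI proteins load small RNAs with the help of Tudor-domain proteins, represses transposons in germ cells. In meiosis, homologous chromosomes are joined by the synaptonemal complex along axes built from cohesin and HORMA-domain proteins. In mouse stem cells, many germline promoters rich in CpG are known to be repressed by DNA methylation and by PRC1.6, a Polycomb complex that binds E-box and E2F motifs through MGA, MAX and E2F6. Culture in 2i lowers DNA methylation, and transcripts of some of these genes are known in such cells.

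Libraries held 25748897 to 38128366 counts. Levels are given as TPM, which are scaled for gene length and depth, where genes are set side by side, and as CPM, which are counts scaled for depth with TMM factors, where libraries are compared. Rnaseh1, the gene under Dox control, stood at 183, 140 and 152 TPM in day 0 Dox libraries, against 26.7, 29.1 and 29.7 TPM in day 0 control libraries. It was higher with Dox on all 3 days, with log2 fold changes of 2.43, 1.53 and 1.54 from day 0 to day 5 (edgeR adjusted p = 4.1e-13, 9.9e-10 and 1.3e-09). Day 0 Dox replicate 2 stood apart, since the rRNA gene CT010467.1 took 4.76% of its counts, against 0.144 to 0.483% in the other 17 libraries. The Dox comparisons of day 0 are therefore given with and without that library. The 8 naive stem cell markers summed to 1910 to 2120 TPM in day 0 control, 192 to 206 TPM in day 3 control and 5.48 to 7.33 TPM in day 5 control. Their part in the course of the germline genes was not tested.

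The promoter windows of 6 genes are printed here because these genes show the main patterns of the data, which are a steep loss by day 3 (Rpl10l, Hormad1 and Dazl) and a rise at day 3 before loss at day 5 (Tdrd5, Sycp3 and Ddx4). The 3 falling genes are among the 6 members with the highest day 0 control TPM that have a window, and the 3 rising genes were picked after their values were seen. The others of those 6, Kit, Syce2 and Tdrd12, have windows with neither motif named below and are not printed. The printed windows are thus not a fair sample of motif content. Each printed window runs from 250 bases before to 50 bases after the RefSeq transcript start on GRCm38.p6 and is written 5′ to 3′ on the gene's strand. Capitals mark the E-box CACGTG and the E2F motif GCGGGAA, which reads TTCCCGC where it lies on the other strand. Rpl10l lies at chr12:66284352-66284651 (minus strand), Hormad1 at chr3:95559427-95559726 (plus) and Dazl at chr17:50293571-50293870 (minus). Tdrd5 lies at chr1:156303299-156303598 (minus), Sycp3 at chr10:88459337-88459636 (plus) and Ddx4 at chr13:112652261-112652560 (minus).
Rpl10l: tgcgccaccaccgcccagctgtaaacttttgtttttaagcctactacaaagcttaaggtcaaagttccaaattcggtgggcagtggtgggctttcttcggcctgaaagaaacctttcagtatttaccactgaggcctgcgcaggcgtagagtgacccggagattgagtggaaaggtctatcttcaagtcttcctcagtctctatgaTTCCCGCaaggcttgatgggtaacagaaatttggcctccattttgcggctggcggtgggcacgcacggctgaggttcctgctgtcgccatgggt
Hormad1: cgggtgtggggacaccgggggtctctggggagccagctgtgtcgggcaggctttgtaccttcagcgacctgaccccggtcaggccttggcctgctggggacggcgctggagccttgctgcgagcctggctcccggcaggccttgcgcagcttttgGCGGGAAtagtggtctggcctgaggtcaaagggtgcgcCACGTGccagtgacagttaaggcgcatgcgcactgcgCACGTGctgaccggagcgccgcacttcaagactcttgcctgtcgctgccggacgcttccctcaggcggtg
Dazl: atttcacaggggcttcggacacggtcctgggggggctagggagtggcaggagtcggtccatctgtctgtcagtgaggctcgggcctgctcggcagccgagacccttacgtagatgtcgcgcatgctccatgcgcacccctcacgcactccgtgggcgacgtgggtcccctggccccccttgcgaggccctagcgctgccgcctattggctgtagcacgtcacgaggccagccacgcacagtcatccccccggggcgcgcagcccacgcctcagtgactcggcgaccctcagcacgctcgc
Tdrd5: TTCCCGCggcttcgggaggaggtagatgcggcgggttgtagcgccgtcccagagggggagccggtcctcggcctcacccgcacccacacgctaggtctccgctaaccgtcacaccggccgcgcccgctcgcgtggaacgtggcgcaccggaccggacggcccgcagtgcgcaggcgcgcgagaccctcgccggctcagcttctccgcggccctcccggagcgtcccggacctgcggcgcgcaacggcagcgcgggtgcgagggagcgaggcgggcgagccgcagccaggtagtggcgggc
Sycp3: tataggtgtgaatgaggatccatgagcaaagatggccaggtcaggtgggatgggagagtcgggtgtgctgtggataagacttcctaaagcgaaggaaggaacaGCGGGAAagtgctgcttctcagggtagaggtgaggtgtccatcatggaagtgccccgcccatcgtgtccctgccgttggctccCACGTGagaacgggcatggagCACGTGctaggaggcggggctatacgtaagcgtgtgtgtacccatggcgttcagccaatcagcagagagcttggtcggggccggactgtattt
Ddx4: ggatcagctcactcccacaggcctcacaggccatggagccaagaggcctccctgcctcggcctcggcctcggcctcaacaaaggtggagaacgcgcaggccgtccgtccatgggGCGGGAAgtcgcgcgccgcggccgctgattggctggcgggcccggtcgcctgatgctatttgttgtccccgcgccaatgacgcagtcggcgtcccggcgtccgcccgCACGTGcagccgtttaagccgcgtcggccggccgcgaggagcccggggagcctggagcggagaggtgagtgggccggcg

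RefSeq windows were found for 28 of the 34 members. The E-box was present in 11 of them (39.3%), against 7.09% of the 27025 windows of all genes, and the E2F motif in 8 (28.6%), against 4.67% of all windows. Both strands were searched, and a match to one motif can share at most 1 base with a match to the other. A member with several windows was given the one nearest its annotated gene start. For all genes the first window by sorted position was taken, so the 2 sides were not picked alike. This holds for the motif and CpG comparisons here. The windows of Hormad1, Sycp3, Ddx4 and Slc25a31 held both motifs, those of Rpl10l and Tdrd5 held the E2F motif alone, and that of Dazl held neither. The windows were also richer in CpG than most, with a median observed over expected ratio of 0.702, against 0.38 over all genes. Among windows with a ratio of at least 0.6, the E-box was in 50% of 20 member windows, against 11.2% of 9701 windows of all genes. The E2F motif was in 35% of these member windows, against 10.2% of those of all genes. The E-box was in 4 of 7 windows of members that were higher at day 3 than at day 0 in control, in 2 of 15 windows of members that were lower and in 4 of 4 windows of members whose call was neither. These shares are descriptions of letters in a window and were not tested. The windows of Mei1, Prdm1, Nanos3 and Tex101 belong to another transcript start, which lies 12480, 69753, 8665 and 4625 bases from that of the gene model in the files' annotation. Among the printed windows, the RefSeq start lies 316 bases inside the gene model for Tdrd5 and 165 bases inside it for Ddx4. The whole Tdrd5 window and the marked motifs of Ddx4 are thus downstream of the start in that annotation.

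In day 0 control cells, 20 of the 34 members were on, which is used here for at least 1 TPM in all 3 libraries. A further 11 were low and 3 were off, which means under 0.1 TPM in all 3 libraries. The members on included all 5 primordial germ cell genes, 7 of the 10 meiotic chromosome genes, 4 of the 7 testis and oocyte genes, 3 of the 10 piRNA and Tudor genes and 1 of the 2 RNA-binding genes. With Dox at day 0, 21 members were on, and Mov10l1 was the member on in Dox and low in control. Summed over the 34 members, the level was 638 to 713 TPM in day 0 Dox libraries, against 605 to 655 TPM in day 0 control libraries. The heat map of TPM by library shows that each role held genes at very different levels.

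**Figure D1:**
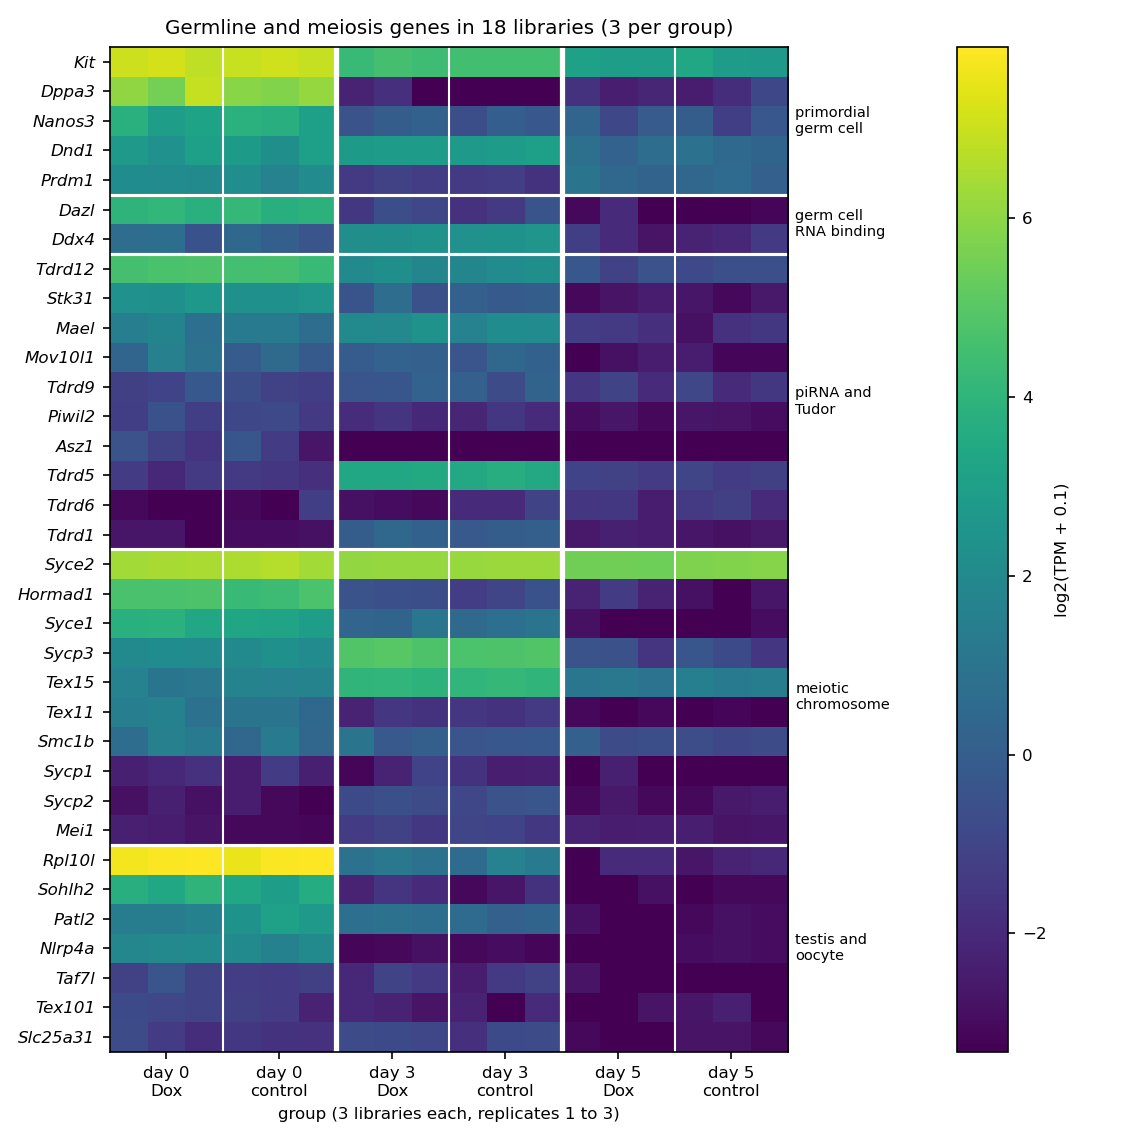
Heat map of the 34 members (rows, grouped by role and ordered by day 0 control level) in 18 libraries (columns, 3 per group, Dox left of control on each day), coloured by log2(TPM + 0.1). Rpl10l, Kit and Syce2 are the brightest rows at day 0, most rows darken by day 5, and Tdrd5, Sycp3, Tex15 and Ddx4 are brightest at day 3.

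The highest member was Rpl10l, an autosomal retrogene copy of the X-linked ribosomal protein gene Rpl10 that serves in male meiosis when the X chromosome is silent. It had 207, 228 and 241 TPM in day 0 Dox libraries, against 190, 231 and 237 TPM in day 0 control libraries. Rpl10l and Rpl10 are near-identical, so the share of reads given to each by the authors' counting is uncertain. Rpl10 itself averaged 2400 TPM in day 0 control, 2800 TPM in day 3 control and 2600 TPM in day 5 control. Kit, the receptor of stem cell factor on primordial germ cells and other stem cells, followed with 135, 146 and 115 TPM in day 0 Dox libraries, against 126, 138 and 122 TPM in control libraries. Syce2, a central element protein of the synaptonemal complex, had 81.7, 87.3 and 88.5 TPM in day 0 Dox libraries, against 91.3, 99.7 and 82.2 TPM in control libraries. The libraries of the groups overlapped for each of these 3 genes.

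Dppa3, a chromatin protein that protects methylation in the zygote and marks early germ cells, had 65.9, 47.1 and 122 TPM in day 0 Dox libraries, against 59.5, 54.8 and 69.2 TPM in control libraries. Day 0 Dox replicate 3 was the high library, while replicate 1 lay within the control range and replicate 2 below it. Hormad1, a HORMA-domain protein of the meiotic axis, had 25.4, 25.9 and 26.9 TPM in Dox libraries, against 19.6, 20.5 and 26.8 TPM in control libraries. Tdrd12, a Tudor-domain helicase of piRNA formation, had 24.5, 25.8 and 27.6 TPM in Dox libraries, against 23.1, 24.3 and 19 TPM in control libraries. Dazl, an RNA-binding protein that licenses germ cells for gametogenesis, had 15.7, 17.2 and 13.8 TPM in Dox libraries, against 17.9, 13.3 and 14.8 TPM in control libraries. Nanos3, an RNA-binding protein needed for the survival of primordial germ cells, had 13.9, 7.48 and 9.11 TPM in Dox libraries, against 14.4, 13.7 and 8.13 TPM in control libraries. The groups overlapped for Hormad1, Dazl and Nanos3. For Tdrd12 every Dox library lay above every control library and the edgeR adjusted p was 0.53 (log2 fold change 0.23, SE 0.13).

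At the other end, 14 members were not on in day 0 control. They included Sycp1, which encodes the transverse filament of the synaptonemal complex, and Sycp2, which encodes a lateral element protein. They also included Piwil2, which encodes the PIWI protein MILI, and Ddx4, the germ cell RNA helicase also named Vasa. Sycp1 held 16 counts over the day 0 Dox libraries and 19 over the day 0 control libraries, and Tex101, a germ cell surface protein gene, held 24 over the Dox libraries and 15 over the control libraries. These 2 genes did not pass the filter on low counts, so 32 members were tested.

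Between day 0 and day 3 in control, 18 of the 32 tested members fell and 9 rose (edgeR adjusted p under 0.05). Over all 17795 genes tested in that comparison, 36.3% were lower and 37.2% were higher (73.5% in either direction), so a change as such was common. The median log2 fold change was -1.2 over the members and 0.016 over all genes. Between day 3 and day 5, 26 members fell and 1 rose, against 33.1% lower and 31.7% higher over all genes (64.8% in either direction). The median log2 fold change of that step was -3.29 over the members (-3.04 with genes without counts set at their bounds) and -0.008 over all genes. At day 5 against day 0, 27 members were lower and 1 was higher, against 40.3% lower and 38.9% higher over all genes (79.2% in either direction), with a median of -4.13 (-3.32 with the bounds). In bulk libraries, fewer cells of a type and less RNA per cell cannot be told apart.

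The courses fell into few kinds. Of the 32 members, 13 fell in both steps. A further 4, which were Dppa3, Nanos3, Asz1 and Nlrp4a, fell by day 3 with no call after it. Prdm1 fell by day 3 and rose by day 5. For 5 members, which were Dnd1, Mov10l1, Tdrd9, Taf7l and Slc25a31, the only falling step was from day 3 to day 5. The remaining 9 rose by day 3, and 8 of these fell by day 5.

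Loss was steepest by day 3 for a group that had been high in stem cells. Rpl10l had 0.863, 1.87 and 1.46 CPM in day 3 control libraries, against 127, 165 and 156 CPM in day 0 control libraries. That is a log2 fold change of -6.70 (SE 0.17, edgeR adjusted p = 7.3e-17), while Rpl10 differed by 0.05 (edgeR adjusted p = 0.40). Dppa3 had no count in the 3 day 3 control libraries, against 30.8, 30.4 and 35.4 CPM in day 0 control libraries, and was at least 371-fold lower at a floor of 3 counts per library. No library of the later group came near the earlier one for either gene.

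Hormad1 had 0.266, 0.360 and 0.563 CPM in day 3 control libraries, against 19, 21.3 and 25.5 CPM in day 0 control libraries, a log2 fold change of -5.75 (SE 0.21, edgeR adjusted p = 2e-14). Dazl had 0.332, 0.514 and 0.691 CPM in day 3 control libraries, against 27.8, 26.6 and 25.8 CPM in day 0 control libraries, a log2 fold change of -5.66 (SE 0.20, edgeR adjusted p = 7.9e-15). Sohlh2, a helix-loop-helix factor of early spermatogonia and oocytes, fell by 6.72 on the log2 scale (SE 0.35). Its further step from day 3 to day 5 had an edgeR adjusted p of 0.021, which became 0.23 without day 3 control replicate 3, 0.066 without day 5 control replicate 1 and 0.051 without day 5 control replicate 3. Nlrp4a, an oocyte NLR gene with close paralogs, held 4 counts over the day 3 control libraries, against 837 over the day 0 control libraries.

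Among the other primordial germ cell genes, Kit had 68.9, 73.5 and 67.1 CPM in day 3 control libraries, against 423, 426 and 393 CPM in day 0 control libraries, a log2 fold change of -2.57 (SE 0.08, edgeR adjusted p = 1.5e-15). Nanos3 had 0.199, 0.360 and 0.282 CPM in day 3 control libraries, against 5.92, 6.01 and 3.37 CPM in day 0 control libraries (log2 fold change -4.15, SE 0.34). Both genes were lower in every day 3 library than in any day 0 library. Prdm1, the repressor that starts germ cell specification and also acts in other lineages, took another course. It had 15.6, 12.1 and 15.8 CPM at day 0, 0.664, 1.13 and 0.793 CPM at day 3 and 3.73, 4.94 and 3.42 CPM at day 5 in control libraries. Its log2 fold change was -4.05 (SE 0.22) at day 3 against day 0 and 2.20 (SE 0.23) at day 5 against day 3, with edgeR adjusted p of 5.4e-12 and 1e-07.

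Dnd1, an RNA-binding protein of primordial germ cells, was kept to day 3. It had 7.25, 5.61 and 8.54 CPM at day 0, 6.01, 7.04 and 7.73 CPM at day 3 and 1.46, 1.33 and 1.05 CPM at day 5 in control libraries. The day 3 and day 0 libraries overlapped (log2 fold change -0.04, SE 0.18, edgeR adjusted p = 0.87), and every day 5 library was lower (day 5 against day 3 -2.45, SE 0.21, edgeR adjusted p = 5e-09). Of its 2412 exon bases, 140 are shared with Wdr55 on the other strand, and the strand setting of the counting is not given in the sources used here. The other 4 members that were lost only after day 3 were the piRNA helicase genes Mov10l1 and Tdrd9, the TFIID subunit gene Taf7l of male germ cells, and Slc25a31, the ADP/ATP carrier of the testis. Mov10l1 had 2.65, 4.05 and 2.17 CPM at day 0, 1.86, 2.7 and 2.89 CPM at day 3 and 0.0339, 0.0317 and 0.0257 CPM at day 5 in control libraries. Its day 3 and day 0 libraries overlapped, and every day 5 library was lower (day 5 against day 3 -6.20, SE 0.52, edgeR adjusted p = 4.1e-09). Tdrd9 fell by 2.13 (SE 0.32) and Slc25a31 by 3.40 (SE 0.57) on the log2 scale in that step, and Taf7l held no count over the day 5 control libraries, against 28 over the day 3 control libraries, and was at least 2.59-fold lower.

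A slower loss by day 3 was seen for Tdrd12 (log2 fold change -2.55), the Tudor-domain kinase-like gene Stk31 (-2.73), the central element gene Syce1 (-2.54), the oocyte mRNA-binding gene Patl2 (-2.67) and the crossover gene Tex11 (-3.00). Smaller losses were those of Piwil2 (-1.26), the meiotic cohesin gene Smc1b (-1.15) and Syce2 (-0.42). All 8 passed the edgeR threshold at day 3 and again from day 3 to day 5. The second step of Smc1b had an edgeR adjusted p of 0.043, which lay between 0.057 and 0.096 without any 1 of the 6 control libraries of day 3 and day 5. Syce2 had 44.9, 51.9 and 39.4 CPM at day 0, 31.3, 34.8 and 35.4 CPM at day 3 and 21.9, 23.5 and 24.7 CPM at day 5 in control libraries. It was the member with the highest level left at day 5, at 53.7, 55.7 and 59.0 TPM. Asz1, a mitochondrial scaffold of the piRNA pathway, held no count in any day 3 or day 5 library, against 25 over the day 0 control libraries, and was at least 3.43-fold lower at day 3.

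The speed of the loss was also expressed as the percent of the mean day 0 CPM left, for the 20 members on in day 0 control. The median left was 15.4% at day 3 and 1.28% at day 5 in control libraries. At day 3, 4 of the 20 were under 1%, 7 lay between 10 and 50% and 3 were above 100%. By day 5, 10 of the 20 were under 1% and 15 were under 10%, and the highest were Tex15 at 69.7% and Syce2 at 51.5%. All of those under 1% at day 5 lay under the percent that a floor of 3 counts per library stands for. That floor was itself above 1% for Tex11 (2.33%) and Syce1 (1.08%), so a level under 1% is not shown for these 2 genes. In Dox libraries, against the Dox level at day 0, the medians were 12.5% at day 3 and 1.10% at day 5, and 10 of the 20 were again under 1% at day 5. All of these but Hormad1 (0.538%, floor 0.363%) lay under their floors.

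**Figure D2:**
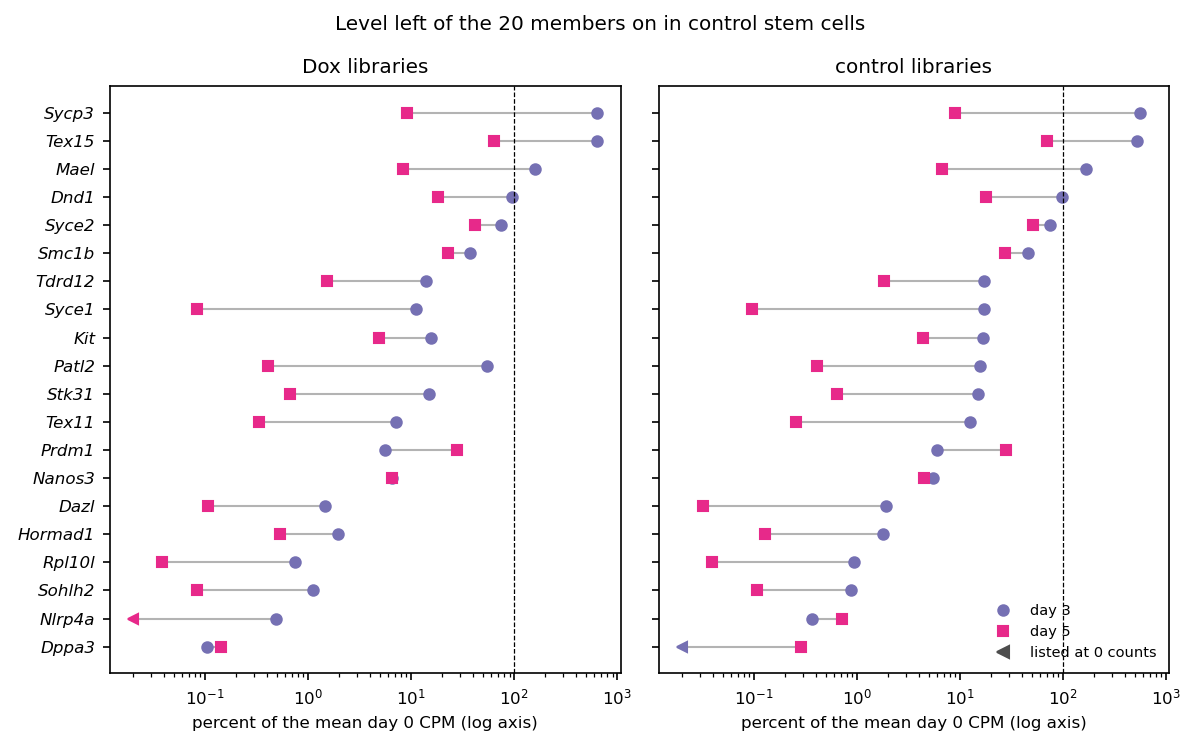
Percent of the mean day 0 CPM left at day 3 (circles) and day 5 (squares) for the 20 members on in day 0 control, in Dox libraries (left) and control libraries (right), on a log axis with a dashed line at 100%. Triangles at the left edge are groups listed at 0 counts, and Sycp3, Tex15 and Mael lie above 100% at day 3.

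At day 3, 9 members stood above their stem cell level, and 4 of them belonged to the piRNA and Tudor group and 4 to the meiotic chromosome group. Tdrd5, which is needed for piRNA formation and spermatid development, had 25.8, 29.7 and 25.2 CPM in day 3 control libraries, against 0.702, 0.654 and 0.449 CPM in day 0 control libraries. The log2 fold change was 5.47 (SE 0.17, edgeR adjusted p = 1.7e-15). At day 5 it was back at 0.949, 0.602 and 0.720 CPM, which overlapped the day 0 libraries (log2 fold change 0.32 against day 0, edgeR adjusted p = 0.26). The gene shares 176 of its 6937 exon bases with an antisense RNA.

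Sycp3, a lateral element protein of the synaptonemal complex, had 17.9, 19.0 and 20.2 CPM in day 3 control libraries, against 3.08, 3.99 and 3.18 CPM in day 0 control libraries. Its log2 fold change was 2.47 (SE 0.16, edgeR adjusted p = 8.8e-11), and at day 5 it fell to 0.440, 0.317 and 0.154 CPM. Of its 1264 exon bases, 660 are shared with Chpt1 on the other strand, so reads of the pair may not be told apart. Chpt1 moved the other way between day 0 and day 3 (log2 fold change -0.91, edgeR adjusted p = 1.1e-07). Tex15, a gene of meiotic repair and of piRNA-guided silencing, had 64.2, 61.9 and 56.4 CPM in day 3 control libraries, against 13, 10.8 and 11.1 CPM in day 0 control libraries (log2 fold change 2.39, SE 0.15, edgeR adjusted p = 6.9e-11). At day 5 it had 8.67, 7.41 and 8.26 CPM, and its difference from day 0 (log2 fold change -0.52, edgeR adjusted p = 0.0083) lost its call when scaled by library size alone (-0.35, edgeR adjusted p = 0.071).

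Ddx4 had 10.1, 10.8 and 11.5 CPM in day 3 control libraries, against 2.85, 2.15 and 1.42 CPM in day 0 control libraries (log2 fold change 2.34, SE 0.31, edgeR adjusted p = 1.8e-06), and 0.203, 0.253 and 0.489 CPM in day 5 control libraries. Mael, a piRNA factor of nuage, had 2.92, 4.31 and 4.17 CPM in day 3 control libraries, against 2.49, 2.68 and 1.61 CPM in day 0 control libraries (log2 fold change 0.75, SE 0.27, edgeR adjusted p = 0.018). The rise of Mael was the smallest of the 9 in log2 fold change, and its edgeR adjusted p was 0.085 without day 0 control replicate 3, 0.070 without day 3 control replicate 2 and 0.060 without day 3 control replicate 3.

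The last 4 rising members started near zero. Tdrd1, a Tudor partner of PIWI proteins, had 2.56, 3.06 and 3.30 CPM in day 3 control libraries, against 0.117, 0.125 and 0.150 CPM in day 0 control libraries (log2 fold change 4.47, SE 0.40). Sycp2 had 1.20, 2.13 and 2.33 CPM in day 3 control libraries, against 5 counts over the day 0 control libraries (log2 fold change 4.90, SE 0.56). Mei1, a gene for the breaks that start recombination, had 0.896, 0.925 and 0.537 CPM in day 3 control libraries, against 4 counts over the day 0 control libraries (log2 fold change 3.94, SE 0.45). No day 3 library overlapped a day 0 library for these 3 genes, and all 3 fell again by day 5. Tdrd6, a Tudor protein of the chromatoid body, held 22 counts over the day 3 control libraries, against 4 over the day 0 control libraries, and 24 over the day 5 control libraries. Its rise at day 3 (edgeR adjusted p = 0.024) was lost without day 0 control replicate 2 (0.12) or day 3 control replicate 3 (0.097). Its call at day 5 against day 0 (edgeR adjusted p = 0.0098) was lost without day 0 control replicate 2 (0.056) or day 5 control replicate 1 (0.061).

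**Figure D3:**
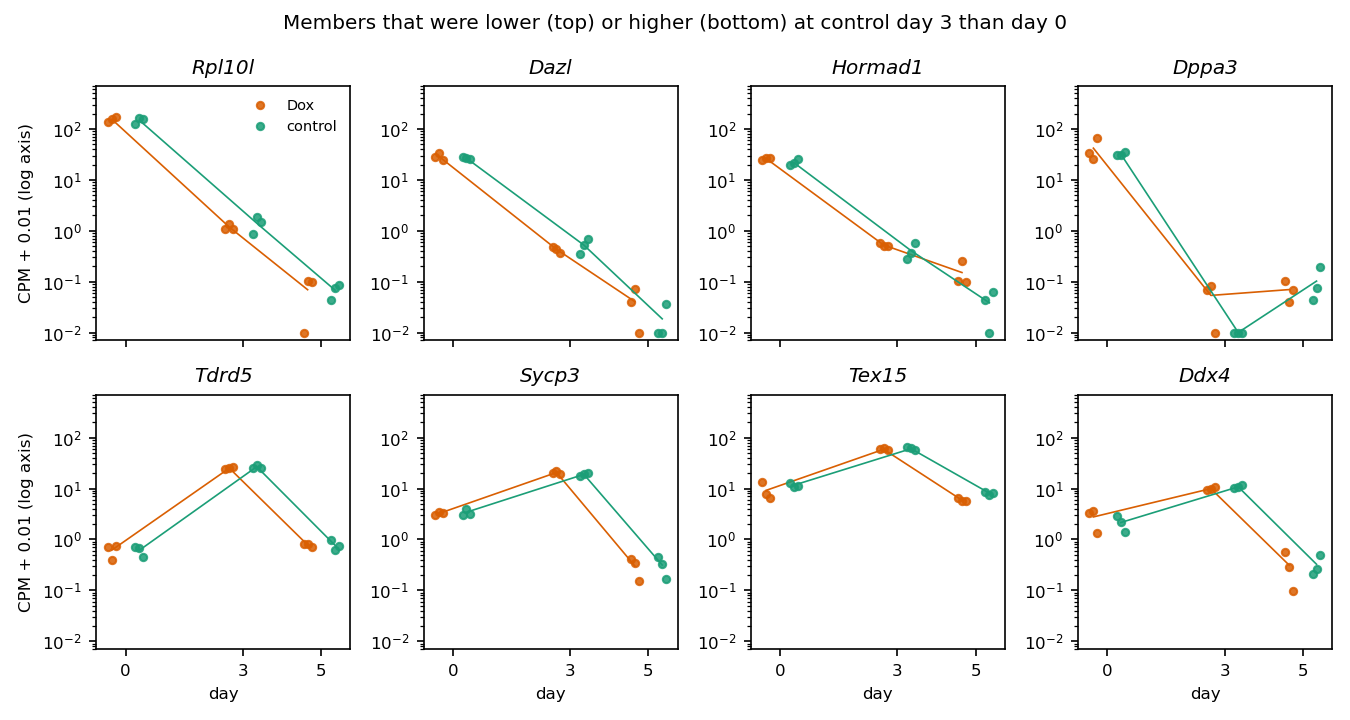
CPM + 0.01 per library on a log axis against day for 4 members that fell by day 3 in control (top row) and 4 that rose (bottom row), with Dox in orange left of control in green and lines through the group means. Rpl10l, Dazl, Hormad1 and Dppa3 are at or below 1.87 CPM at day 3, while Tdrd5, Sycp3, Tex15 and Ddx4 peak at day 3, and the Dox and control courses lie close together.

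The Dox comparisons ask whether induction of Rnaseh1 changed these genes. At day 0, 1 of the 32 tested members passed the edgeR threshold, as a lower gene, and none was higher, against 0.747% lower and 0.292% higher over all genes (1.04% in either direction). The plot of Dox fold changes shows most members near zero with standard errors that grow as counts fall. Patl2 had 4.52, 4.76 and 5.51 CPM in day 0 Dox libraries, against 9.28, 16 and 11.2 CPM in day 0 control libraries. The groups did not overlap, Dox was lower in 3 of 3 replicate numbers, and the log2 fold change was -1.31 (SE 0.20, edgeR adjusted p = 0.0035). Without day 0 Dox replicate 2 it was -1.28 (edgeR adjusted p = 0.020). Fitted on day 0 libraries alone it was -1.30, and the edgeR adjusted p of 0.34 did not pass. Over all genes, 3 were called in the fit of day 0 libraries alone, against 185 in the fit of all libraries. With the replicate number as a block, which treats same-numbered libraries as paired, the fit of day 0 libraries alone gave -1.27 and called Patl2 (edgeR adjusted p = 0.0083).

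Of the other members at day 0, 25 had a positive log2 fold change and 6 a negative one, with a median of 0.21 over all 32, while 48.6% of all genes were positive and their median was -0.001. Without Dox replicate 2, the library with the high rRNA share, 22 of the 32 tested members were positive and 10 negative, with a median of 0.10, while 49.3% of all genes were positive. A further 5 members had an unadjusted p under 0.05, all with higher levels with Dox in 3 of 3 replicate numbers. Mei1 held 5, 5 and 4 counts in day 0 Dox libraries, against 1, 2 and 1 counts in day 0 control libraries (log2 fold change 1.86, SE 0.57, edgeR adjusted p = 0.20). Without Dox replicate 2 the log2 fold change of Mei1 was 1.81 (edgeR adjusted p = 0.36). Mov10l1 had 3.57, 6.43 and 3.61 CPM in Dox libraries, against 2.65, 4.05 and 2.17 CPM in control libraries (log2 fold change 0.61, SE 0.26, edgeR adjusted p = 0.35). Syce1 had 11.6, 15.1 and 9.92 CPM in Dox libraries, against 8.96, 10.2 and 7.41 CPM in control libraries (log2 fold change 0.46, SE 0.20, edgeR adjusted p = 0.35). For Mov10l1 and Syce1, Dox replicate 2 was the highest of the 6 libraries, and without it the values were 0.27 and 0.28 (edgeR adjusted p = 0.79 and 0.70). Without it the log2 fold change of Tex11 was 0.38 in place of 0.54, and that of Sycp2 was 0.93 in place of 1.65 on 15 counts over the Dox libraries and 5 over the control libraries. Tex15 had 13.2, 7.91 and 6.53 CPM in Dox libraries, against 13, 10.8 and 11.1 CPM in control libraries (log2 fold change -0.34, edgeR adjusted p = 0.43). It was called lower beside Patl2, which made 2 members, when day 0 Dox replicate 1, its highest Dox library, was left out.

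**Figure D4:**
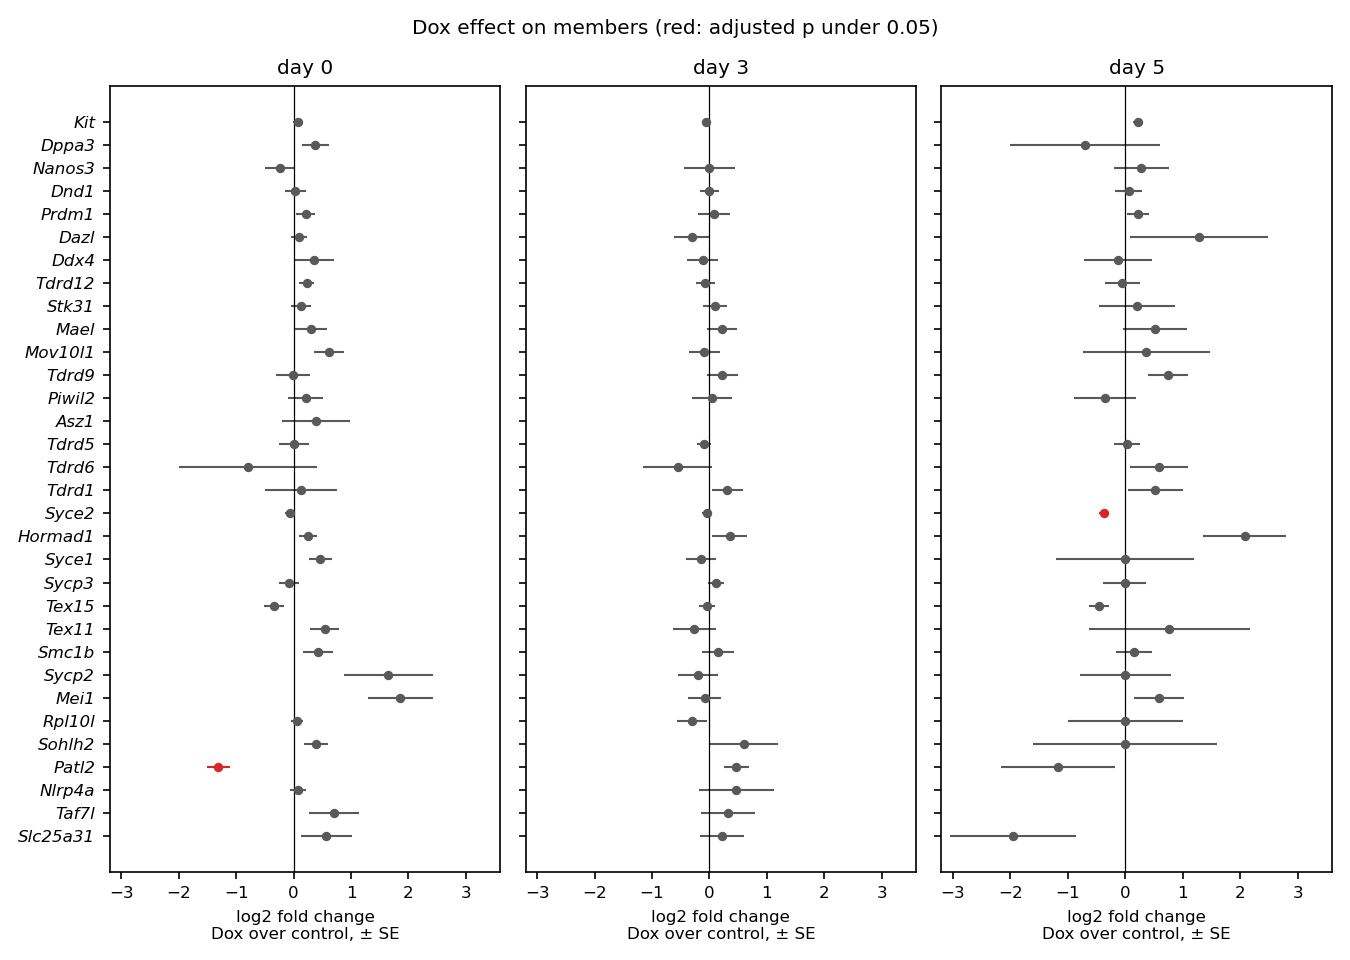
Log2 fold change of Dox over control with its SE for the tested members (rows, in the order of the heat map) at day 0, day 3 and day 5, leaving out members for which a group had no count. Members with few counts in both groups are drawn, such as Syce1 at day 5 with 1 count over the Dox and 1 over the control libraries. Red points passed an edgeR adjusted p of 0.05, which are Patl2 at day 0 and Syce2 at day 5.

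At day 3, none of the 32 members passed the edgeR threshold, against 0.0169% of all genes. DESeq2 called none either, and 1 member, Patl2, had an unadjusted p under 0.05. It had 2.62, 2.82 and 2.56 CPM in day 3 Dox libraries, against 2.29, 1.62 and 1.87 CPM in day 3 control libraries, and the groups did not overlap (log2 fold change 0.47, SE 0.22, edgeR adjusted p = 1.0). The estimates of the Dox effect on Patl2 had opposite signs at day 0 and day 3, though the one at day 3 was not called. The difference of the effects was 1.78 (SE 0.30, edgeR adjusted p = 0.027). Patl2 was the only member called in that comparison, as a higher difference, against 0.0393% higher over all genes (0.0562% in either direction). Its edgeR adjusted p rose to 0.072 without day 0 Dox replicate 2 and was 0.074 in a fit of day 0 and day 3 libraries alone, or 0.098 there with the replicate block. It lay between 0.087 and 0.16 without any 1 of the day 3 Dox libraries or without day 3 control replicate 2 or 3. Of the members that rose at day 3 in control, Tdrd5 had 23.9, 25.5 and 26.1 CPM and Sycp3 had 20.3, 22.6 and 19 CPM in day 3 Dox libraries, with log2 fold changes against control of -0.10 (SE 0.12) and 0.12 (SE 0.14). The change from day 0 to day 3 within Dox libraries was not tested.

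At day 5, 2 of the 32 members were lower and none was higher, against 2.34% lower and 2.39% higher over all genes (4.74% in either direction). Syce2 had 18, 18.5 and 17.6 CPM in day 5 Dox libraries, against 21.9, 23.5 and 24.7 CPM in day 5 control libraries. The groups did not overlap, and the log2 fold change was -0.37 (SE 0.091, edgeR adjusted p = 0.021). Its edgeR adjusted p was 0.061, 0.061 and 0.11 without Dox replicate 1, 2 or 3, and 0.072 and 0.12 without control replicate 2 or 3. The Dox effect on Syce2 at day 5 minus that at day 0 was -0.31 (SE 0.13, edgeR adjusted p = 0.23), and without day 0 control replicate 2 it was -0.42 (edgeR adjusted p = 0.048). Nlrp4a, with an edgeR adjusted p of 0.042, held no count in day 5 Dox libraries and 2, 3 and 2 counts in day 5 control libraries, which is at or under the floor of 3 counts per library. Its call was lost without any 1 of the 6 day 5 libraries (edgeR adjusted p from 0.068 to 0.16) and in DESeq2 (0.060). Nlrp4a was also the only member for which the Dox effect at day 5 differed from that at day 0, as a lower difference (edgeR adjusted p = 0.046), against 1.52% lower and 1.76% higher over all genes (3.28% in either direction). That call was lost without any 1 of the day 5 libraries (edgeR adjusted p from 0.069 to 0.15), and it lay between 0.050 and 0.053 without day 0 Dox replicate 2, day 0 control replicate 1 or 2, or any 1 of the day 3 libraries.

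**Figure D5:**
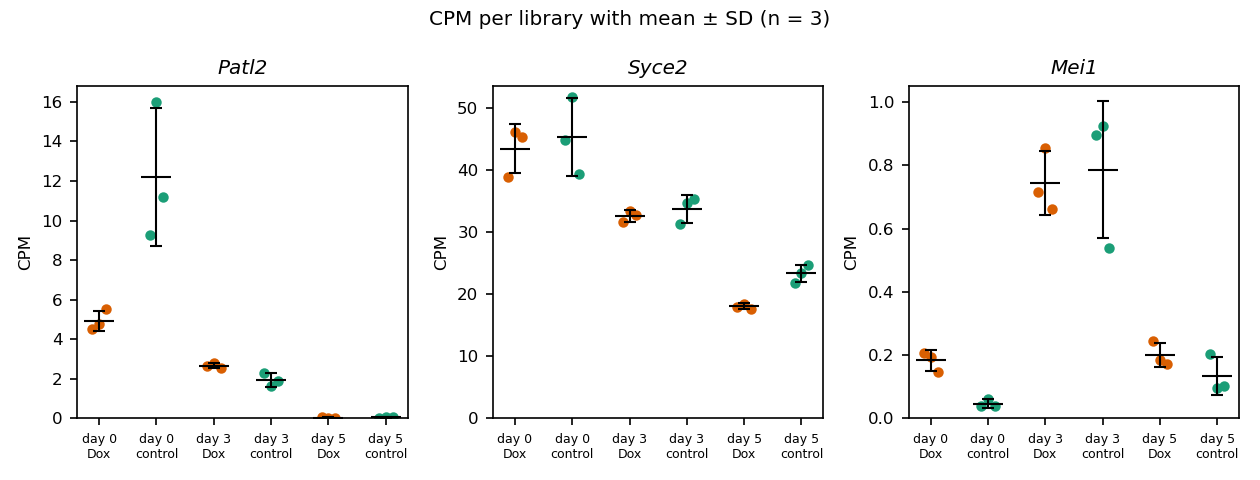
CPM per library (points) with mean ± SD (n = 3, black) for Patl2, Syce2 and Mei1 in the 6 groups, with Dox left of control on each day. Patl2 is lower with Dox at day 0, Syce2 is lower with Dox at day 5, and Mei1 lies below 0.25 CPM in every day 0 library.

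A further 4 members had an unadjusted p under 0.05 at day 5. Tex15 had 6.45, 5.61 and 5.63 CPM in day 5 Dox libraries, against 8.67, 7.41 and 8.26 CPM in day 5 control libraries (log2 fold change -0.46, SE 0.17, edgeR adjusted p = 0.16). The groups did not overlap, and the edgeR adjusted p was 0.022 with day 5 libraries fitted alone, 0.0059 without the filter on low counts and 0.011 without day 0 Dox replicate 1. Hormad1 held 14 counts over the day 5 Dox libraries, against 3 over the day 5 control libraries (edgeR adjusted p = 0.12). Kit had 23.0, 20.6 and 19.8 CPM in Dox libraries, against 19.4, 17.6 and 17.4 CPM in control libraries, with no overlap (log2 fold change 0.22, SE 0.087, edgeR adjusted p = 0.19). Kit passed with day 5 libraries fitted alone with replicate numbers as blocks (0.21, edgeR adjusted p = 0.020). Tdrd9 had 0.548, 1.07 and 0.491 CPM in Dox libraries, against 0.576, 0.444 and 0.257 CPM in control libraries, which overlapped. No other member had an unadjusted p under 0.05 at day 5, and the low members were poorly measured, with an SE of up to 1.6.

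Further germline genes outside the 34 members were counted in the same fit. Of 13 tested genes of the piRNA pathway, 4 rose and 8 fell in control from day 0 to day 3, where 37.2% of all genes were higher and 36.3% lower. Among them the Tudor gene Tdrkh rose (log2 fold change 4.47) and Gtsf1 (-6.05), Fkbp6 (-4.19) and Mov10 (-4.09) fell. Of 25 tested meiosis genes, 11 rose and 10 fell, with the meiotic entry gene Stra8 (-6.58) and Rec114 (-5.68) among the lower. The higher ones included the meiotic cohesin gene Rad21l, which had 0.332, 0.180 and 0.358 CPM in day 3 control libraries and no count in day 0 control libraries. They also included Spo11, the nuclease-like protein of meiotic breaks, which had 0.930, 1.0 and 0.947 CPM in day 3 control libraries, against 0.117, 0 and 0 CPM in day 0 control libraries. Of 21 tested germ cell and oocyte genes, 3 rose and 13 fell, with Prdm14 (-9.87), Khdc3 (-9.38), Ooep (-7.62) and the egg coat gene Zp3 (-6.23) at the low end. All these calls are by edgeR at an adjusted p under 0.05. In the Dox comparisons, 1 gene of these 3 lists was called, which was Kitl, the ligand of Kit, at day 5 (log2 fold change -0.76, edgeR adjusted p = 0.013). That is 1 gene among the 13, 25 and 21 tested, where 4.74% of all genes were called at day 5, so the lists held no excess of calls.

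Genes of the PRC1.6 complex and of DNA and H3K9 methylation were read in the same way. The second list is not one of repressors alone, since it also holds the DNA demethylation genes Tet1, Tet2 and Tet3. All 14 genes of the PRC1.6 list were on in all 6 groups, and 5 rose and 8 fell in control from day 0 to day 3, again beside 37.2% higher and 36.3% lower over all genes. E2f6, the E2F subunit, rose (log2 fold change 1.49, SE 0.058) and the RYBP relative Yaf2 rose (2.12), while Wdr5 (-1.25) and Rybp (-1.11) fell. Of 18 genes of DNA and H3K9 methylation, 7 rose and 11 fell in the same step, and 17 of the 18 were on in the day 3 and day 5 groups, against 18 at day 0. Dnmt3l, a cofactor of de novo methylation, fell (log2 fold change -4.35, SE 0.69). Tet2 also fell (-4.31), while the H3K9 methylation gene Suv39h1 rose (2.25). Dnmt3b, a de novo methyltransferase, averaged 36.0 TPM at day 0, 317 TPM at day 3 and 29.5 TPM at day 5 in control. With Dox, Dnmt3b was lower at day 0 (log2 fold change -0.42, SE 0.085, edgeR adjusted p = 0.021), which was the only call among these 2 lists in the comparisons of Dox with control. Over all genes, 1.04% were called at day 0.

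Markers of other cell types that could carry these transcripts were summed in each library. The 9 genes of 2-cell-like cells summed to at most 1.46 TPM in Dox groups and 2.71 TPM in control groups, and none of them was on. The 2 tested, Zscan4c and Zscan4f, were called higher in control at day 3 than at day 0. Their log2 fold changes were 5.05 and 2.05 (edgeR adjusted p = 0.0043 and 0.046). All 9 were at 0 TPM in day 5 control. The 7 blood and endothelium markers summed to 61.6 to 69.3 TPM in day 0 Dox and 52.2 to 70.9 TPM in day 0 control. Most of that was Pecam1, which averaged 60.3 TPM in day 0 Dox and 56.8 TPM in day 0 control, while Cdh5 and Kdr stood below 1 TPM. The 5 melanoblast and neural crest markers summed to 12.9 to 16.1 TPM in day 0 Dox, 12.7 to 14 TPM in day 0 control, 60.8 to 68.5 TPM in day 5 Dox and 59.7 to 77.7 TPM in day 5 control. These markers did not move together in control at day 5 against day 0. Of the 3 tested, Ednrb rose (log2 fold change 12.55), while Mitf (-4.05) and Pmel (-2.36) fell. Kit is used in both the blood and the melanoblast lineages. The 6 extraembryonic endoderm markers reached at most 4.19 TPM in Dox and 3.72 TPM in control up to day 3, and 9.26 to 11.9 TPM in day 5 Dox and 7.42 to 8.99 TPM in day 5 control. Among them Pdgfra (log2 fold change 4.07) and Dab2 (2.61) were higher in control at day 5 than at day 0. Gata6 (-1.72) and Gata4 (-1.39) were lower in that comparison. The 6 definitive endoderm markers summed to 423 to 439 TPM in day 3 Dox and 398 to 445 TPM in day 3 control, against 19.5 to 23.0 TPM in day 0 Dox and 23.7 to 31.3 TPM in day 0 control. Of the 5 tested in control at day 3 against day 0, Foxa2, Trh, Cldn6 and Epcam rose and Sox17 fell (log2 fold change -1.42). Cer1 was at 0 in the day 3 Dox libraries. The 6 trophoblast markers summed to 61.7 to 68.5 TPM in day 3 Dox and 70.4 to 81.0 TPM in day 3 control, with Elf5 at 0. At day 0 they summed to 43.9 to 49.5 TPM in Dox and 39.2 to 42.8 TPM in control. Of the 5 tested in control at day 3 against day 0, 4 rose and Tfap2c fell (log2 fold change -2.99). Cdx2 (4.68), Krt18 (3.16) and Eomes (3.06) were among the higher ones. The part of any of these cell types in the levels of the members was not tested.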

How the data were processed

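Poly(A) RNA was made into libraries with an Illumina stranded mRNA kit, per the labels' protocols. The tools listed in the submitters' processing notes, without their roles, are RSEM 1.3.3, STAR 2.7.10a, DESeq2 1.38.2 and Trimmomatic, and the build is GRCm38. The annotation release and the strand setting are not given in the sources used here. The deposited tables hold expected counts, which are the authors' estimated counts per gene and are not scaled to depth, and 6.54 to 7.49% of them were not whole. All were rounded. The deposited tables also hold the authors' TPM values, which were used for levels.

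Counts were fitted in edgeR 4.0.16 (R 4.3.3) by quasi-likelihood F tests on all 18 libraries with a mean per group, TMM factors of 0.894 to 1.063 and the default filter, which kept 17795 genes. P-values were Benjamini-Hochberg adjusted over all of them, with a threshold of 0.05. The fit had 12 residual degrees of freedom and a common coefficient of variation of 0.09. Replicates differed more at day 0 than later. The median over genes of the squared difference between replicates, relative to counting error, was 2.352 to 4.829 at day 0. It was 0.751 to 2.189 on the later days. A spread shared by all groups may thus be too small for day 0, and its adjusted p-values too low. On simulated counts for Dox against control at day 0, with 200 of 17795 genes changed 2-fold, 73% were recovered and 3.9% of calls were false. The changed genes were drawn only from those above a set mean count, and the spread was the one shared by all groups. These rates therefore do not cover members with few counts or a larger spread at day 0. Symbols were found for 55141 of 55401 gene IDs. Floors of 3 counts per library cover counting error only.

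Members, lists and tests were chosen with earlier results of these data known. The rule for values in every library took members called in a Dox comparison or higher at a later day in control, the 8 with the highest day 0 control TPM, the primordial germ cell genes, and up to 4 members per Dox comparison with an unadjusted p under 0.05. From other lists up to 4 called genes with the largest changes were named. A batch tag in the labels equals the replicate number, which was read as pairing the libraries, though the labels do not state a pairing. Deviations from the group mean of same-numbered Dox and control libraries had a correlation over genes of 0.206 to 0.331 on day 0, 0.010 to 0.036 on day 3 and 0.022 to 0.051 on day 5. For libraries of different numbers it was -0.252 to 0.055 on day 0, -0.043 to 0.02 on day 3 and -0.057 to 0.02 on day 5. The same-numbered libraries thus stood clearly apart on day 0 alone. Alternatives were the replicate block, DESeq2 1.42.0, other scalings and filters, fits of the groups of 1 comparison alone, and each library left out in turn. A fit without the rRNA gene CT010467.1 and the members' day 0 median without Dox replicate 2 were chosen after seeing the data.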

Additional observations from a re-analysis of the deposited data

Results flagged for a closer look

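The Dox effect on Patl2 differed between day 3 and day 0 by 1.78 on the log2 scale, which edgeR's test of the difference placed past the threshold (adjusted p = 0.027). The Dox effect on Nlrp4a differed between day 5 and day 0 by -4.30 on the log2 scale in the same test (edgeR adjusted p = 0.046). That value rests on 0 counts in day 5 Dox libraries and 7 counts in day 5 control libraries and gives no fold.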

How the results depend on the processing

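With the replicate number as a block, 1, 0 and 2 members were called for Dox against control at day 0, day 3 and day 5, the same genes as without it, and 28 in each of the 3 control comparisons. Fits of the groups of 1 comparison alone called 0 members for Dox at day 0 without the block and 1 with it, which was Patl2, and 0 for the differences of the Dox effect at day 3 and at day 5 from that at day 0, with or without the block for these differences. DESeq2 called 1 member for Dox at day 5 and 0 for the difference between day 5 and day 0, and 0 were called for that difference without the filter. Leaving out each library in turn gave 1 to 2 calls for Dox at day 0, 0 to 3 at day 5 and 0 to 1 for each difference. It gave 25 to 28 calls for control day 3 against day 0 and for day 5 against day 3. At a threshold of 0.5 TPM, 17 members were on in day 3 control, and at 2 TPM, 3 were on in day 5 control. From deposited TPM, the median level left in control was 17.5% at day 3 and 1.67% at day 5. Leaving out each library gave 14.5 to 16% and 1.22 to 1.4%. No named result reversed its direction in the settings run. The causes of these changes were not tested. For members at or under 3 counts per library, a call or its absence rests on few reads.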
